A study of Mus musculus with 41 samples.

Results

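Respiratory complex I is represented here by the 42 genes whose platform symbol starts with Nduf, out of 17097 genes tested, in epidermal stem cells of mice given a control diet or one high in fat. Probe sets assigned to 1 gene only were used, and where a gene had more than 1, the brightest by its mean over the arrays stood for it. Of the 42 members, 6 were core subunits, 9 accessory subunits of the matrix arm, 7 membrane arm subunits of the A and C series, 9 membrane arm subunits of the B series, 1 the acyl carrier protein and 7 assembly factors. The other 3 carry the name without being plain complex I genes. Ndufa4 is now placed with complex IV, Ndufa4l2 is its paralog, and Ndufs5-ps is annotated as a pseudogene, whose probe set may also read Ndufs5, which was not tested. All members were fitted with no filter on low values, and each member's mean lay above the 25th percentile of all genes tested.

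Complex I, NADH:ubiquinone oxidoreductase, is the entry point of electrons from NADH into the respiratory chain, and it pumps protons across the inner mitochondrial membrane. Electrons pass from NADH to a flavin, along a chain of iron-sulfur clusters held by the core subunits of the matrix arm, and on to ubiquinone. The membrane arm core is encoded by mitochondrial DNA and does not carry the Nduf name, so the members are nuclear genes for the matrix arm core, for the accessory subunits around both arms and for the factors that put the complex together. In the epidermis, basal stem cells divide and supply the layers above them, and their energy metabolism and division follow the time of day.

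The cells came from wild type C57B6/J females aged 15 weeks, which had free access to their diet for 7 weeks from the age of 8 weeks. Collection was at 6 zeitgeber times 4 h apart, where ZT0 is lights on. From ZT0 to ZT20 the groups held 4, 3, 2, 3, 4 and 4 arrays on the control diet, and 3, 4, 2, 4, 4 and 4 on the high fat diet, of a planned 4 each. Numbered replicates are not stated to be separate mice, and p-values therefore reflect the spread between arrays, which may be technical. Mice killed on 1 day belonged to 1 time point, so time point and collection day cannot be told apart. The design text does not settle whether a day's mice included both diets.

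Array medians of the deposited log2 values lay between 6.41 and 6.44. The control arrays of ZT8 stood apart on the second principal component of all genes, at -33.1 and -42.7, while the other arrays lay between -14.0 and 26.4. The 2 high fat arrays of ZT8 also differed from each other, at -2.80 and -14.0 on that component and at -6.47 and -31.0 on the first. The counts at ZT8 are therefore also given with single arrays of that time left out. The basal keratinocyte markers Krt5, Krt14, Col17a1, Krt15 and Trp63 ranked above 99% of all genes by mean level. The suprabasal keratins Krt1 and Krt10 also ranked there, while the suprabasal marker Flg lay at the 1.62nd percentile. The bulge markers ran from the 16.9th percentile (Cd34) to the 90.4th (Nfatc1), with Sox9 at the 86.1th. Whole cell populations were measured, so fewer cells of a type and less RNA per cell cannot be told apart.

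Promoters are shown for 4 members, since NRF1 and YY1 are known regulators of nuclear genes for the respiratory chain and since most members moved together. Ndufs6 held motifs of both factors, Ndufs4 the YY1 motif and Ndufa6 an NRF1 motif. All 3 rose at ZT12, as 31 of the 42 members did. Ndufs7 held the same YY1 motif and did not pass the test at ZT12. Each sequence is the RefSeq GRCm38.p6 stretch of 300 bases from 250 before to 50 after the gene's start, written 5′ to 3′ on the gene's strand, with motif matches in capitals. Ndufs6 lies at chr13:73328433-73328732 (minus strand), Ndufs4 at chr13:114388045-114388344 (minus strand), Ndufa6 at chr15:82354242-82354541 (minus strand) and Ndufs7 at chr10:80249199-80249498 (plus strand).
Ndufs6: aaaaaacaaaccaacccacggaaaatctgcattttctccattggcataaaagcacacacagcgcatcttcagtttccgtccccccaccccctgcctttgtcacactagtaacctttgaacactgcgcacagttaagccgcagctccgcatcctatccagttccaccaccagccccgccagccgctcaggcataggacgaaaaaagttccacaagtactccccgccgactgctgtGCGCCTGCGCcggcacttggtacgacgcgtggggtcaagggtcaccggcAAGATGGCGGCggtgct
Ndufs4: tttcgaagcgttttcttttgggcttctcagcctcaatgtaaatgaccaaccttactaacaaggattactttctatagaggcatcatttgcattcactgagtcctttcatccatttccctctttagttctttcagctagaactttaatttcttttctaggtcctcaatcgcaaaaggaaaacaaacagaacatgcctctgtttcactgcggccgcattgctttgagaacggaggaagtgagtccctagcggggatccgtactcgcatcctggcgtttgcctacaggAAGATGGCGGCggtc
Ndufa6: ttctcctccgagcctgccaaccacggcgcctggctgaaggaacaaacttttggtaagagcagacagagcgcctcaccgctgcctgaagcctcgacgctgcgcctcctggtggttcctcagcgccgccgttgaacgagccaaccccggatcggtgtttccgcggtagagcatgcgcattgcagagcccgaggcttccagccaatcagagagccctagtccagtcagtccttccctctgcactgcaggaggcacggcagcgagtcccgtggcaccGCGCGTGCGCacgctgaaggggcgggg
Ndufs7: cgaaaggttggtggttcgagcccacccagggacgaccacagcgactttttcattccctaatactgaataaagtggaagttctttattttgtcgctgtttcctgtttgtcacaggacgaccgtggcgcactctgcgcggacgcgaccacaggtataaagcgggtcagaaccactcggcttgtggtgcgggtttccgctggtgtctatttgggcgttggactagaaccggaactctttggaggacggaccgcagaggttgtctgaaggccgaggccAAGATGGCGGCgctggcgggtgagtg

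The promoter table held 38 promoters of 36 members, and 6 motifs were searched on both strands. The NRF1 motif, with 1 free base, is matched on the opposite strand by the first capitals in Ndufs6 and by those in Ndufa6. It was in 9 of the 38 promoters (23.7%, of 8 genes, since both overlapping windows of Ndufa5 count) and in 4.6% of all 32851 promoters. Its stricter form, in which the free base is T and which the former contains, was in 3 member promoters (7.89%, against 0.971% of all), those of Ndufa11, Ndufaf4 and Ndufaf5. The YY1 motif, the capitals in Ndufs4 and Ndufs7, was in 5 (13.2%, against 0.633%), those of Ndufa9, Ndufaf8, Ndufs4, Ndufs6 and Ndufs7. The ETS motif CCGGAAGT was in the promoter of Ndufs3 (2.63%, against 3.89%), the E-box CACGTG in 3 (7.89%, against 7.15%; 2 genes, since Ndufa7 has 2 overlapping windows) and the ESRRA motif TCAAGGTCA in 0 (against 0.423%). These are matches of letters in a fixed window. Binding was not measured, and members with a motif were found among those that rose at ZT12 and among those that did not pass.

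By the mean of arrays, the Nduf genes were highest at ZT12 on the high fat diet and lowest at ZT8 on the control diet, although single arrays of other groups lay as low as 1 of the control ZT8 arrays. The median deviation of the 42 genes from their means over the 12 groups was 0.50, 0.340, 0.452 and 0.375 in the 4 high fat arrays of ZT12. It was -0.0709, -0.0497 and -0.000898 in the 3 control arrays of ZT12. At ZT8 it was 0.0259 and 0.261 on the high fat diet and -0.169 and -0.363 on the control diet. At both time points all high fat arrays lay above all control arrays. On the control diet the median was above 0 in all 4 arrays of ZT0 (0.0670 to 0.186) and in 3 of the 4 arrays of ZT20 (0.0975 to 0.233), with -0.166 in the remaining one. On the high fat diet it was below 0 in all 4 arrays of ZT16, from -0.217 to -0.130.

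**Figure D1:**
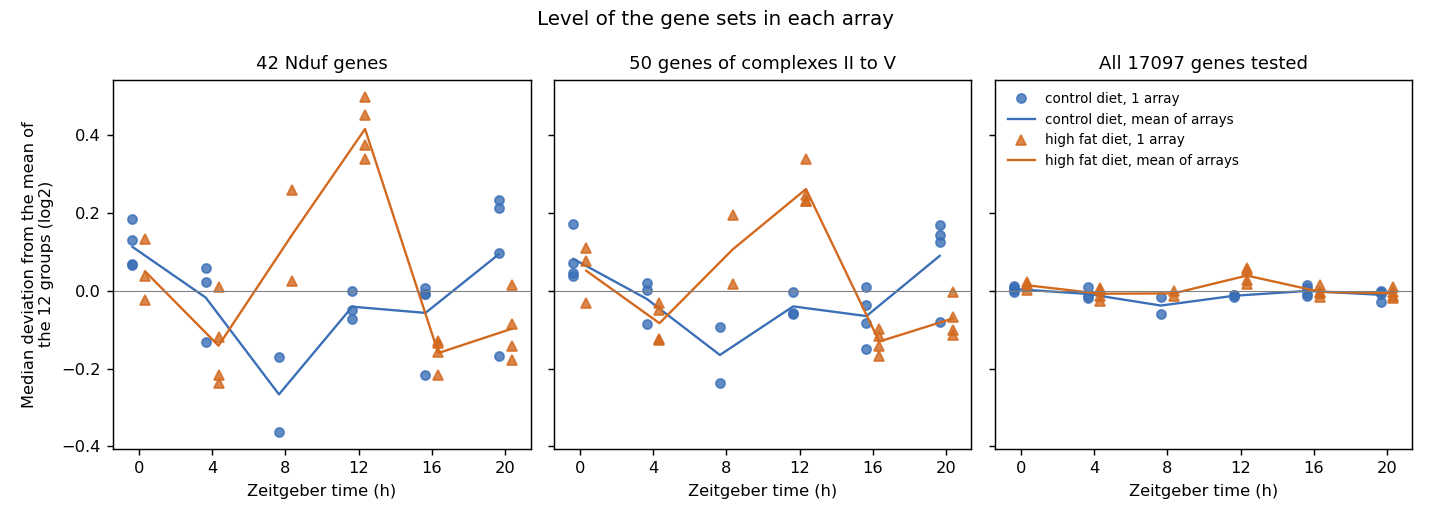
Median deviation (log2) of a gene set from its means over the 12 groups, by zeitgeber time in hours, for the 42 Nduf genes, the 50 genes of complexes II to V and all 17097 genes; points are arrays and lines are means of arrays. The 4 high fat arrays of ZT12 lie between 0.340 and 0.50 for the Nduf genes, above all 3 control arrays of that time.

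Gene by gene the group means were compared within each diet. On the high fat diet ZT12 was the highest of the 6 group means for 40 of 42 members, and the lowest was ZT16 for 17 and ZT4 for 12. On the control diet the highest was ZT0 for 23 and ZT20 for 13, and the lowest was ZT8 for 26. These counts were not made over all genes. The median deviation of all genes was also highest at high fat ZT12 (0.0404) and lowest at control ZT8 (-0.0359). The distance from the lowest to the highest group mean had a median of 0.463 (log2) on the control diet and 0.636 on the high fat diet over the members, against 0.314 and 0.292 over all genes. On the control diet it ran from 0.0839 for Ndufaf6 to 1.26 for Ndufaf2, and on the high fat diet from 0.233 for Ndufa4l2 to 1.22 for Ndufb2.

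**Figure D2:**
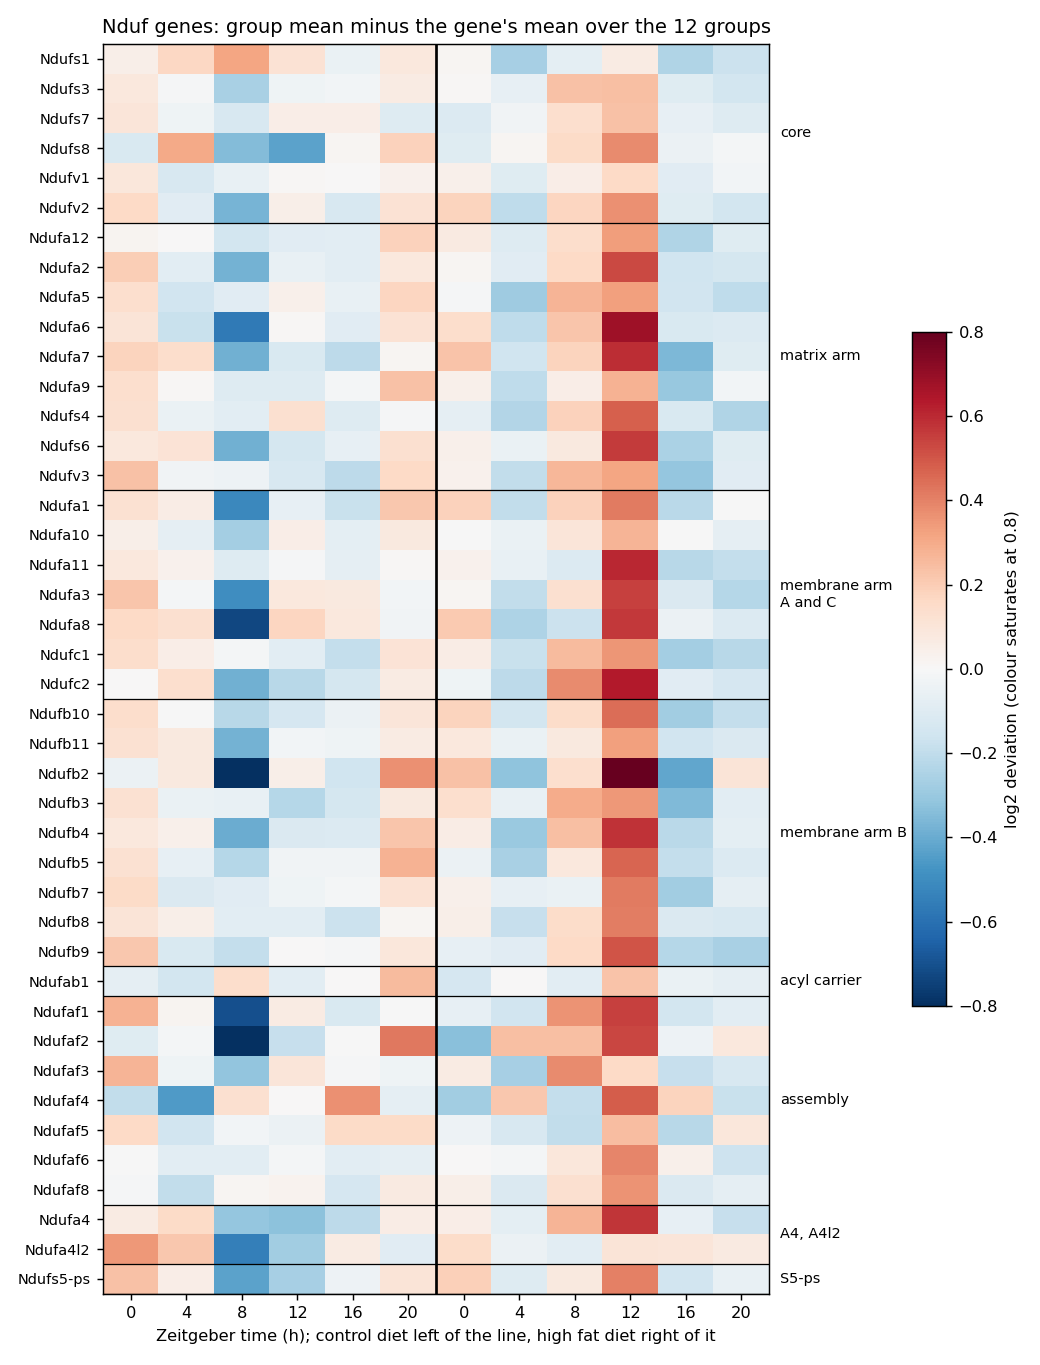
Group mean of each Nduf gene minus its mean over the 12 groups (log2, colour), with genes in rows by role and zeitgeber time in columns, control diet left and high fat diet right of the line. The column of high fat ZT12 is the highest of the high fat columns for 40 of the 42 genes, and control ZT8 is the lowest control column for 26.

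At ZT12, the transition from light to dark, 31 of the 42 Nduf genes were higher with high fat feeding and 0 were lower (limma, adjusted p under 0.05). Of all genes tested, 13.6% rose at that time point. The differences of the 31 ran from 0.28 (log2, Ndufs3) to 0.90 (Ndufa4), and the median over the 42 was 0.454, against 0.0535 over all genes. In 35 members every high fat array lay above every control array, which held for 20.6% of all genes, and the difference was positive in 41 of 42. Without Ndufa4, Ndufa4l2 and Ndufs5-ps, 28 of 39 rose. With each array's median of the tested genes subtracted, 27 rose and 0 fell, and the share of rises among all genes that changed went from 75.4% to 51.0%. The share of all genes that rose in that fit is not given here.

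**Figure D3:**
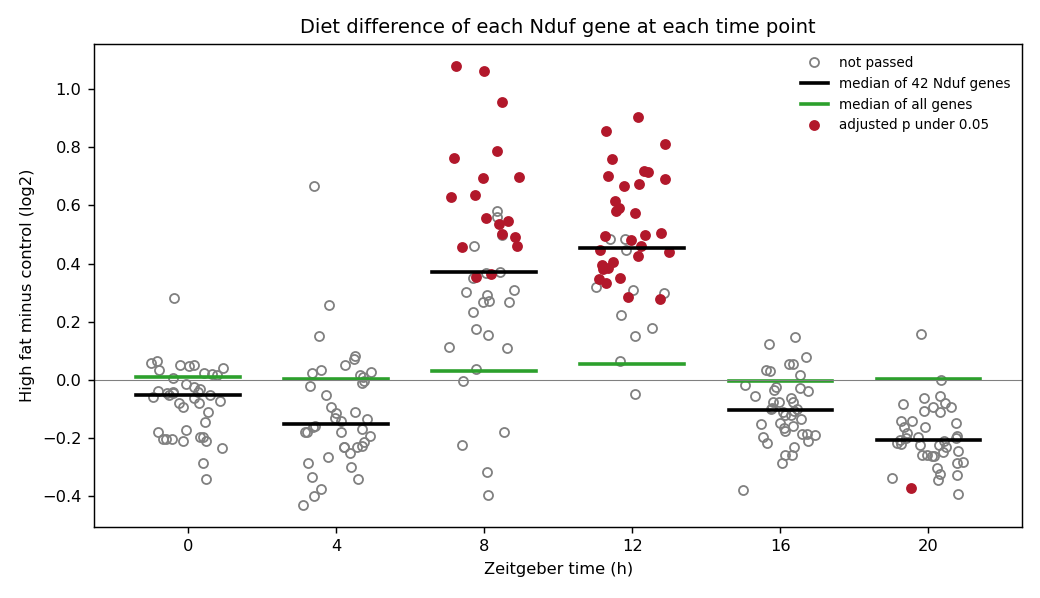
High fat minus control (log2) of each of the 42 Nduf genes by zeitgeber time in hours, filled red where the adjusted p is under 0.05, with the median of the members (black line) and of all genes (green line). At ZT12 31 genes pass, all of them above 0, at ZT8 18 pass, and at ZT20 1 passes below 0.

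Of the 6 core subunits, 2 rose at ZT12. Ndufs8, which carries iron-sulfur clusters near the end of the electron path, rose by 0.81 ± 0.165 (SE, log2, adjusted p = 0.00113), from a mean of 7.75 ± 0.0576 (SD, n = 3) to 8.56 ± 0.0906 (SD, n = 4). Ndufs3, a structural subunit of the ubiquinone module, rose by 0.28 ± 0.0904 (adjusted p = 0.0308). The 4 others had adjusted p above the threshold. Ndufv1, which binds NADH and the flavin, differed by 0.15 ± 0.0756 (0.162), Ndufv2, an iron-sulfur subunit beside it, by 0.32 ± 0.122 (0.0653) and Ndufs7, which holds the last cluster before ubiquinone, by 0.18 ± 0.0956 (0.197). Ndufs1, the largest iron-sulfur subunit of the matrix arm, was the member with a negative difference at ZT12, at -0.050 ± 0.153 (0.858).

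All 9 accessory subunits of the matrix arm rose at ZT12, by 0.29 to 0.72. Ndufs6, a zinc-binding subunit added late in assembly, had the smallest adjusted p of all members. Its arrays read 9.94, 9.91 and 10.03 on the control diet and 10.77, 10.59, 10.78 and 10.51 on the high fat diet. The groups did not overlap, and the difference was 0.70 ± 0.0868 (SE, log2), or 1.63-fold, with an adjusted p of 1.2e-05. It remained past the threshold under all 50 alternatives run, with values from 0.64 to 0.75.

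Around the rest of the day Ndufs6 moved less. The control arrays read 10.19, 10.23, 10.18 and 10.14 at ZT0, 10.26, 10.31 and 10.05 at ZT4, 9.93 and 9.50 at ZT8, 10.05, 10.02, 10.10 and 9.97 at ZT16, and 10.38, 9.97, 10.33 and 10.23 at ZT20. The high fat arrays read 10.12, 10.10 and 10.21 at ZT0, 9.99, 10.05, 10.11 and 10.04 at ZT4, 10.13 and 10.23 at ZT8, 9.76, 9.90, 9.85 and 9.89 at ZT16, and 10.16, 10.01, 9.98 and 9.88 at ZT20. All 4 high fat arrays of ZT12 were above every other array of either diet, and at ZT16 all 4 high fat arrays were below all 4 control arrays.

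Ndufs4, a subunit whose loss causes mitochondrial disease in mice and people, read 9.85, 9.56 and 9.80 in the control arrays of ZT12 and 10.15, 10.10, 10.08 and 10.02 in the high fat arrays. The high fat arrays were all above the control arrays, with a difference of 0.35 ± 0.0851 (adjusted p = 0.00508), or 1.27-fold. Ndufa6, which belongs to a family of small proteins that bind the acyl carrier protein, read 8.81, 8.54 and 8.66 on the control diet and 9.45, 8.99, 9.44 and 9.47 on the high fat diet at ZT12. Its difference was 0.67 ± 0.117 (adjusted p = 0.000266), and high fat replicate 2 lay below the other 3 high fat arrays but above all control arrays. Ndufa7 rose by 0.72 ± 0.160, the largest difference in this group, and Ndufa5 by 0.29 ± 0.0811, the smallest.

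In the membrane arm 6 of the 7 A and C series genes and 8 of the 9 B series genes rose at ZT12. Ndufc2, a small membrane subunit, read 8.68, 8.46 and 8.63 in the control arrays and 9.51, 9.34, 9.60 and 9.33 in the high fat arrays, without overlap. It rose by 0.86 ± 0.149 (SE, log2, adjusted p = 0.000245), or 1.81-fold. Ndufb3, a single-pass membrane subunit, read 9.72, 9.61 and 9.62 on the control diet and 10.31, 10.09, 10.34 and 10.15 on the high fat diet, and it rose by 0.57 ± 0.0875 (6.9e-05).

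Ndufa1, an X-linked membrane subunit needed for assembly, read 10.74, 10.88 and 10.87 in the control arrays of ZT12 and 11.40, 11.34, 11.22 and 11.29 in the high fat arrays. It rose by 0.48 ± 0.0826 (adjusted p = 0.000229) with no overlap. Ndufb2 rose by 0.76 ± 0.162 and Ndufa11 by 0.62 ± 0.140. The 2 membrane arm genes that did not pass were Ndufa10, which resembles nucleoside kinases, at 0.22 ± 0.0951 (0.0992), and Ndufb7, at 0.45 ± 0.164 (0.0551). The acyl carrier gene Ndufab1, whose product also serves mitochondrial fatty acid synthesis, had a difference of 0.31 ± 0.142 (0.126).

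Of the 7 assembly factors, 3 rose at ZT12. Ndufaf2, a paralog of the subunit Ndufa12 that acts late in assembly of the matrix arm, read 8.53, 8.04 and 8.12 on the control diet and 8.94, 8.81, 8.99 and 9.05 on the high fat diet. It rose by 0.72 ± 0.177 (SE, log2, adjusted p = 0.00530) with no overlap. Ndufaf6 rose by 0.41 ± 0.123 (0.0204), and Ndufaf8, which stabilises Ndufaf5, by 0.33 ± 0.0824 (0.00546). Ndufaf5, which modifies an arginine of Ndufs7, had a difference of 0.30 ± 0.176 (0.25). Ndufaf1, of the membrane arm assembly complex, had 0.48 ± 0.261 (0.200), and the partners Ndufaf3 and Ndufaf4 had 0.066 ± 0.105 (0.705) and 0.48 ± 0.198 (0.0864).

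Among the members that are not plain complex I genes, Ndufa4 had the largest difference of all 42. It read 9.35, 8.96 and 9.14 in the control arrays of ZT12 and 10.09, 9.87, 10.19 and 10.04 in the high fat arrays. The groups did not overlap, and it rose by 0.90 ± 0.148 (SE, log2, adjusted p = 0.000149), or 1.87-fold. Ndufa4l2, known as a target of hypoxia-inducible factor, rose by 0.38 ± 0.131 (0.0398). Ndufs5-ps read 9.31, 9.07 and 9.23 on the control diet and 9.97, 9.79, 9.96 and 9.79 on the high fat diet, and rose by 0.67 ± 0.120 (0.00032).

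**Figure D4:**
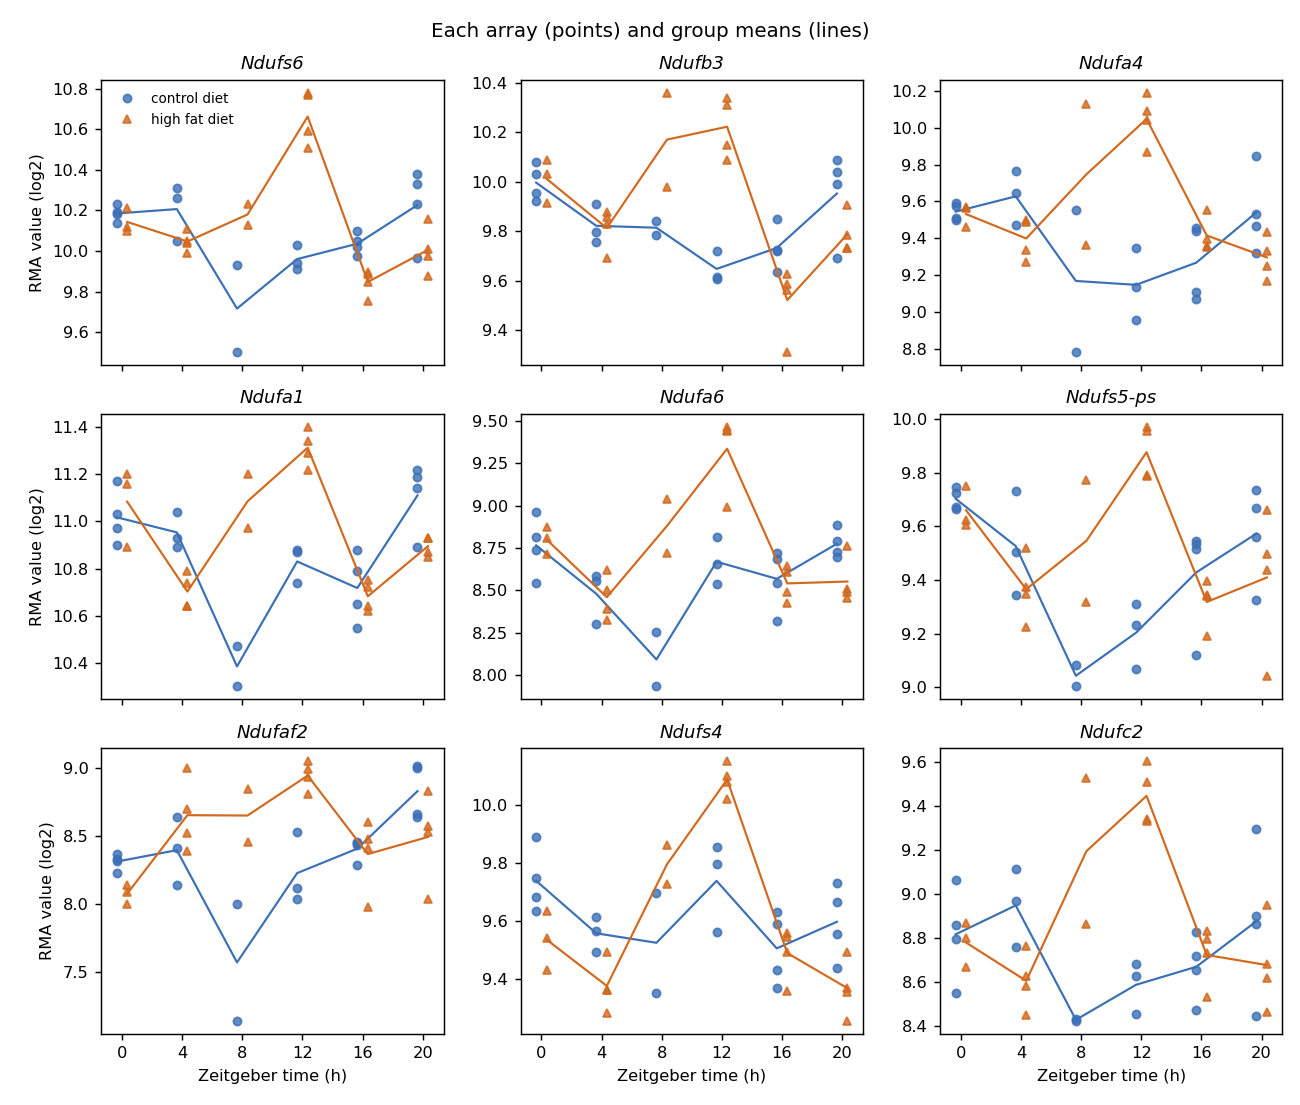
RMA values (log2) of the 9 members given array by array, by zeitgeber time in hours; points are arrays, lines join group means, and each panel has its own vertical scale. The 9 were chosen for small p in these data, in part at ZT12. At ZT12 all 4 high fat arrays lie above all 3 control arrays in each panel, as in 35 of the 42 members and 20.6% of all genes.

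At ZT8, with 2 arrays per diet, 18 of the 42 members were higher with high fat feeding and 0 were lower. Of all genes, 5.42% rose there, and the median difference was 0.371 (log2) over the members and 0.0301 over all genes. By role, 2 of 6 core subunits, 4 of 9 matrix arm, 4 of 7 membrane arm A and C series, 4 of 9 B series and 3 of 7 assembly genes rose, as did Ndufs5-ps. Without control ZT8 replicate 2 the members that passed were Ndufs3, Ndufa1 and Ndufb2, and 1.11% of all genes rose. In 28 members both high fat arrays lay above both control arrays, which held for 28% of all genes. In 3 both lay below, which held for 18.5% of all genes. With array medians of the tested genes subtracted, 15 rose, and the share of rises among all changed genes went from 64.9% to 47.6%. How many of all genes rose in that fit is not given here.

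Ndufa1 had the smallest adjusted p at ZT8. It read 10.47 and 10.30 on the control diet and 10.97 and 11.20 on the high fat diet, a difference of 0.70 ± 0.108 (SE, log2, adjusted p = 0.000159), or 1.62-fold. The control values were below every other array of that gene, while the high fat values lay in the range of other groups. Ndufa6 read 8.25 and 7.93 on the control diet and 8.72 and 9.04 on the high fat diet, and it rose by 0.79 ± 0.153 (0.00145). Ndufaf2 read 8.00 and 7.14 against 8.46 and 8.85, and it rose by 1.08 ± 0.232 (0.00344), or 2.11-fold. The lowest value of Ndufaf2 in the 41 arrays was the 7.14 of control ZT8 replicate 2.

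The core genes past the threshold at ZT8 were Ndufs3 (0.49 ± 0.118, adjusted p = 0.00860) and Ndufv2 (0.55 ± 0.160, 0.0298). Ndufs6 rose by 0.46 ± 0.114 (0.00987), Ndufc2 by 0.76 ± 0.195 (0.0125), Ndufb3 by 0.35 ± 0.115 (0.0496) and Ndufb2 by 0.96 ± 0.212 (0.00438). Ndufs4 had a difference of 0.27 ± 0.111 (0.130), and Ndufa4, with control arrays of 9.55 and 8.78 and high fat arrays of 9.36 and 10.13, had 0.58 ± 0.194 (0.0578). Of the members, 15 passed at ZT8 and at ZT12, among them Ndufs3, Ndufs6, Ndufa6 and Ndufaf2. Ndufaf1, Ndufaf3 and Ndufv2 passed at ZT8 and not at ZT12, and 8 members passed at neither time point. They were the core genes Ndufv1, Ndufs1 and Ndufs7, with Ndufa10, Ndufb7, Ndufab1, Ndufaf4 and Ndufaf5.

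The ZT8 count rested on single arrays. It was 3 without control ZT8 replicate 2, 6 without high fat ZT8 replicate 2 (5 higher and 1 lower), 6 with array weights, and 0 in a fit of the 4 arrays of ZT8 alone. The ZT12 count was between 26 and 33 when any 1 of the 41 arrays was left out, and 30 in a fit of the ZT12 arrays alone.

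At the other 4 time points few or no members passed. At ZT0, ZT4 and ZT16 the count was 0 (limma), and of all genes 0.854%, 0.386% and 1.24% passed. At an unadjusted p under 0.05 there were 3, 11 and 5 members, and 12.9%, 11.9% and 16.1% of all genes. The medians over the members were -0.051, -0.152 and -0.103 (log2). The assembly factor Ndufaf4 had a positive difference at ZT4 of 0.67 ± 0.198 (SE, adjusted p = 0.137). The ZT4 count was 1 without control ZT4 replicate 3, and the ZT0 count 1 when a gene's probe sets were averaged. At ZT20 a larger share of the members than of all genes (14.8%) had an unadjusted p under 0.05. The difference there was negative in 40 of 42 members, with a median of -0.207. The count by sign over all genes is not given here. The median deviation of all genes from their means over the 12 groups was -0.0280 to -0.00130 in the control arrays of ZT20. In the high fat arrays it was -0.0183 to 0.0100. Of the members 1 passed, against 0.392% of all genes lower. It was Ndufa5, a matrix arm subunit, which read 11.26, 10.95, 11.32 and 11.09 on the control diet and 10.92, 10.69, 10.85 and 10.66 on the high fat diet. All 4 high fat arrays were below all 4 control arrays, and the difference was -0.37 ± 0.0751 (SE, adjusted p = 0.0208). The ZT20 count went from 0 to 6 when single arrays were left out, with 0 without control ZT20 replicate 1 or 3 or high fat ZT20 replicate 2 or 4, and 6 without control ZT20 replicate 2. It was 2 without high fat ZT20 replicate 1, 3 without either high fat array of ZT8, 5 with array weights and 0 in a fit of the ZT20 arrays alone.

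Averaged over the 6 time points with equal weight, 4 members passed, 3 higher (5.52% of all genes) and 1 lower (2.06%). Ndufa6 was higher by 0.20 ± 0.0494 (SE, log2, adjusted p = 0.0121), Ndufaf2 by 0.24 ± 0.0748 (0.0432) and Ndufa1 by 0.12 ± 0.0349 (0.0274), and Ndufs1 fell by 0.23 ± 0.0646 (0.0287). The average rested on ZT8 and ZT12, being 0 members without ZT8 and 0 without ZT12. Without both, an alternative chosen after seeing the data, 6 members were lower and 0 higher, and Ndufa6 and Ndufa1 changed sign to -0.059 and -0.11. Leaving out control ZT8 replicate 2 gave 1 member, and leaving out high fat ZT0 replicate 2 or high fat ZT8 replicate 2 gave 2.

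The diet difference itself differed between time points for 33 of the 42 members (limma F test of 5 coefficients), against 19% of all genes. The smallest adjusted p were those of Ndufs6 (1.07e-05), Ndufa1 (1.75e-05) and Ndufb3 (0.000204). The 9 members that did not pass were Ndufv1, Ndufs1, Ndufs7, Ndufa10, Ndufb7, Ndufab1, Ndufaf1, Ndufaf5 and Ndufaf6, and 30 of the 31 members that rose at ZT12 passed. The count was 13 without ZT12 and 0 without ZT8 and ZT12, and the share of all genes in those fits is not given here.

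Within a diet, time point was associated with a change in any shape for 24 members on the control diet and 36 on the high fat diet, 22 of them in both. These are 57.1% and 85.7% of the members, and of all genes 43.9% and 41.5% passed. Ndufa4l2 and Ndufs8 passed on the control diet and not on the high fat diet, and 14 members passed on the high fat diet and not on the control diet, among them Ndufs3, Ndufs4, Ndufc2, Ndufb8 and Ndufb9. Leaving out ZT12 gave 13 on the high fat diet, and leaving out ZT8 gave 13 on the control diet. Without both time points the counts were 9 on the control diet and 7 on the high fat diet. The shares of all genes that passed in these reduced fits are not given here.

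A cosine of 24 h passed for 3 members on the control diet (6.66% of all genes) and for 16 on the high fat diet (11.2%), with no member in both. With the arrays of each diet and time point as a random block (correlation 0.366), 0 members passed in either diet or in the difference. The 3 on the control diet were Ndufs5-ps, with an amplitude of 0.28 ± 0.0668 (SE, log2) and a fitted peak at ZT22.5, Ndufaf2, with 0.40 ± 0.0955 and ZT20.1, and Ndufa4l2, with 0.28 ± 0.0682 and ZT23.3. Amplitudes are measured from mean to peak. Ndufs4 led on the high fat diet, with an amplitude of 0.31 ± 0.0545 (adjusted p = 0.000716) and a peak at ZT10.8 ± 0.641 h (SE), and on the control diet its amplitude was 0.032 ± 0.0531 (0.928). Ndufc2 followed with 0.36 ± 0.0762 (0.00515) at ZT10.8, and the peaks of all 16 lay between ZT7.84 and ZT11.3.

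The cosine differed between diets for 17 members, against 3.58% of all genes, and 14 of these were among the 16 of the high fat diet. The fitted amplitude was larger on the high fat diet for 30 of the 42, a count that was not made over all genes. With 4 h between time points the peaks have no finer resolution than that, and the cosine rested on few groups. All 17 were lost with the random block. Without ZT12 the counts were 11 on the control diet, 0 on the high fat diet and 0 for the difference, and without ZT8 the control count was 1 and the difference 7. Without both, the high fat count was 5 and the difference 0. For all genes, the shares in these alternative fits are not given here.

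Single arrays also moved the cosine counts. On the control diet 1 member passed without control ZT8 replicate 1 and 0 without replicate 2. On the high fat diet 8, 9, 8 and 9 passed without high fat ZT12 replicates 1, 2, 3 and 4, and the difference had 9, 11, 9 and 10, with 11 without control ZT8 replicate 2.

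Other probe sets of the members were not used to stand for them and give a second reading of the same RNA. There were 33, of 22 genes. At ZT12 the difference was positive in 31 and 21 passed as higher and 0 as lower, against 11.9% of all probe sets higher. At ZT8 it was positive in 26 and 11 passed as higher, against 4.49%, with 1 without control ZT8 replicate 2 and 2 without high fat ZT8 replicate 2. For Ndufaf8 the second probe set had 0.88 at ZT12 beside the 0.33 of the first, and for Ndufv1 the second had 0.34 (adjusted p = 0.0396) where the first did not pass. Ndufs4 and Ndufb4 had a probe set of the opposite sign at ZT12, at -0.24 (0.526) and -0.16 (0.176), and neither of these passed.

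Genes of the other respiratory complexes also rose at ZT12. Of all genes 13.6% rose at ZT12 and 5.42% at ZT8, and rises were 75.4% and 64.9% of all genes that changed. Of 50 genes of complexes II to V, 33 rose and 2 fell at ZT12, with a median of 0.303 (log2). At ZT8 13 of the 50 rose and 1 fell, with a median of 0.243. The ZT8 rises were 1 without control ZT8 replicate 2 and 3 without high fat ZT8 replicate 2. In complex V, the ATP synthase, 15 of 18 rose at ZT12, among them Atp5l (0.64 ± 0.0804, adjusted p = 1.3e-05), Atp5e (0.89 ± 0.155) and Atp5d (0.34 ± 0.0679). In complex III 7 of 10 rose, with Uqcrq at 0.53 ± 0.102 and Uqcr11 at 0.56 ± 0.114, and the assembly gene Ttc19 fell by 0.51 ± 0.0914. In complex IV 8 of 16 rose and 1 fell, with Cox4i1 at 0.36 ± 0.062, and in complex II 3 of 6 rose, Sdhd by 0.76 ± 0.145, Sdhb by 0.58 ± 0.121 and Sdhaf1 by 0.75 ± 0.181. The lists are described by their counts, and no test compared them with the Nduf genes.

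Of 8 genes that assemble complex I without carrying the Nduf name, 12.5% passed at ZT12 and at ZT8, against rises in 13.6% and 5.42% of all genes. At ZT12 it was Tmem70, which also serves ATP synthase assembly, at 0.56 ± 0.134 (SE, log2, adjusted p = 0.00447), and at ZT8 Tmem186, at 0.47 ± 0.120 (0.0131). Their median at ZT12 was 0.0117, near the 0.0535 of all genes. Of 12 regulators of mitochondrial biogenesis, 1 rose at ZT12, the nuclear receptor gene Esrra (0.50 ± 0.112, 0.00247), and 1 at ZT8, Yy1 (0.40 ± 0.120, 0.0334). The ZT8 call of Tmem186 was lost without control or high fat ZT8 replicate 2, and that of Yy1 without any 1 of the 4 arrays of ZT8. At ZT12 Yy1 had -0.18 ± 0.0918 (0.180). Of 8 other mitochondrial genes, 4 rose at ZT12, among them the import receptor gene Tomm20 (0.57 ± 0.116), cytochrome c, Cycs (0.29 ± 0.0695), and Tomm22 (0.39 ± 0.130).

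**Figure D5:**
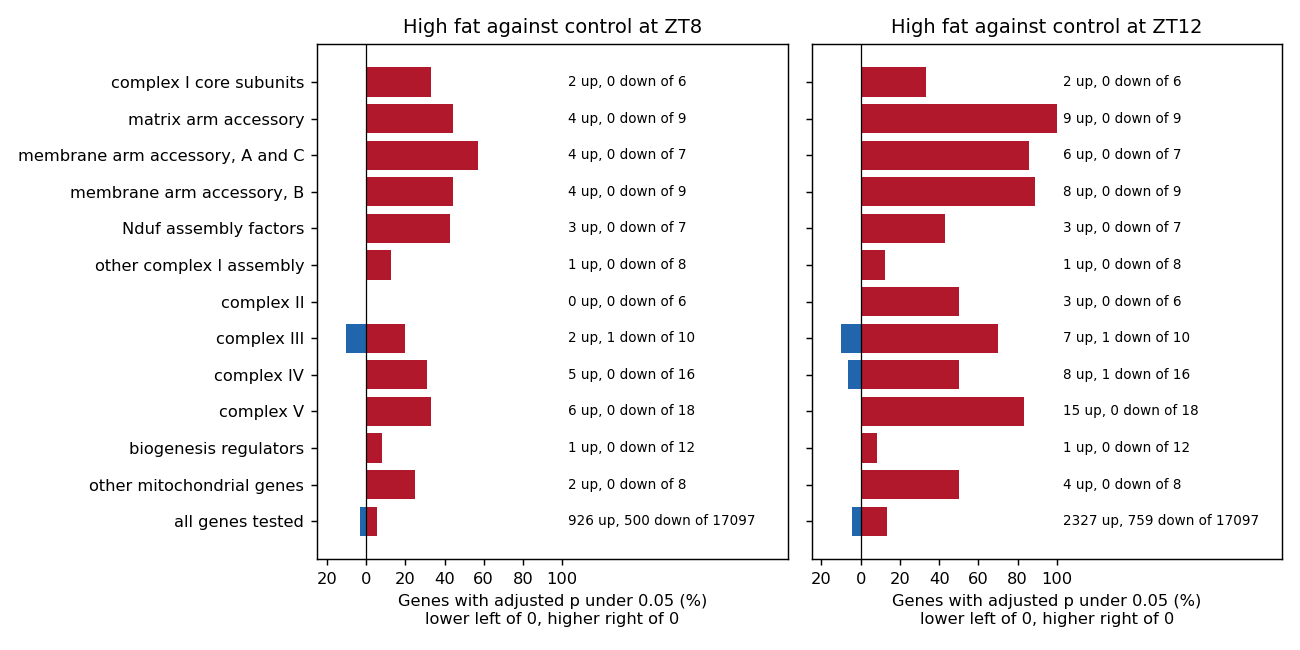
Share of genes (%) with an adjusted p under 0.05 for high fat against control at ZT8 and ZT12, by role within the Nduf genes, by other fixed list and over all genes; bars right of 0 are higher and left of 0 lower on the high fat diet, with counts beside them. At ZT12 the matrix arm accessory bar holds 9 of 9 genes and the complex I core bar 2 of 6, against 2327 higher of 17097 genes.

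Some markers of cell types also differed between the diets at these time points. Of all genes 13.6% rose at ZT12, and rises were 75.4% of all genes that changed there. At ZT12, of 7 leukocyte and Langerhans cell markers 4 rose and 1 fell, with H2-Aa at 0.52 ± 0.107 and Cd52 at -0.71 ± 0.133. The log2 of their summed level was 10.27 to 10.33 on the control diet and 10.43 to 10.74 on the high fat diet. Of 8 basal markers 1 rose (Krt15, 0.27 ± 0.0714), with sums of 14.99 to 15.13 and 15.04 to 15.16. Of 8 suprabasal markers 3 rose, with sums of 13.85 to 13.92 and 13.90 to 14.03. They were Lor (0.79 ± 0.251), Calm4 (0.47 ± 0.155) and Sbsn (0.30 ± 0.107). Of 6 bulge markers 2 rose, Lgr5 by 1.32 ± 0.251 and Cd34 by 0.73 ± 0.203, and 1 fell, Nfatc1 at -0.46 ± 0.151. The bulge sums were 10.53 to 10.74 and 10.43 to 10.90. Of 5 melanocyte markers 2 fell, with Pmel at -0.89 ± 0.180. Of 6 fibroblast, 4 endothelial and 2 adipocyte markers 0 passed, and of 5 skeletal muscle markers 1 rose.

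The basal, suprabasal, bulge and leukocyte lists lay furthest from their means over the 12 groups in the control arrays of ZT8. As the median deviation from their means over the 12 groups, the basal list was at -0.453 (log2) in the control arrays and -0.228 in the high fat arrays of ZT8, and between -0.00704 and 0.148 in the other 10 groups. The leukocyte list was lowest in control ZT8, at -0.487, while the suprabasal and bulge lists were highest there, at 0.522 and 0.564. The basal and leukocyte lists thus had their lowest group where most Nduf genes had their lowest control mean.

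Of all 17097 genes, 926 (5.42%) rose and 500 fell at ZT8. Of the 8 suprabasal markers, 3 fell and 0 rose at ZT8, and the differences ran from -0.638 to 0.420. Dsg1a, Sbsn and Calm4 fell by 0.63 ± 0.145, 0.55 ± 0.140 and 0.64 ± 0.203, and their list summed to 14.46 and 14.50 in the control arrays and to 13.93 and 14.36 in the high fat arrays. Of the 6 bulge markers 2 fell and 2 had positive differences, up to 0.245. Nfatc1 and Lhx2 fell by 1.01 ± 0.198 and 0.90 ± 0.202, with list sums of 11.74 and 11.76 against 10.82 and 11.34. All 8 basal markers had positive differences and 1 passed, the keratin gene Krt14 at 0.37 ± 0.0989, with list sums of 14.62 and 14.66 against 14.59 and 15.02. Of the 7 leukocyte markers 2 rose, H2-Aa by 0.79 ± 0.141 and Cd3e by 0.92 ± 0.236, and the others reached down to -0.484, with sums of 9.79 and 10.25 against 10.19 and 10.23. Of 6 fibroblast and 4 endothelial markers 1 each fell, Dcn and Pecam1, and no melanocyte, adipocyte or muscle marker passed. With single ZT8 arrays left out, 0 to 4 suprabasal and 1 to 3 bulge markers fell (1 suprabasal marker rose without high fat ZT8 replicate 1), and 0 to 4 basal and 0 to 2 leukocyte markers rose. RMA values are never 0, and Flg and Ptprc were the dimmest markers, at the 1.62nd and 1.72nd percentiles of all genes. The part of these differences in those of the Nduf genes was not tested.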

How the data were processed

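Total RNA of epidermal stem cells was measured on 41 Affymetrix arrays. Per the submitters' processing notes, the authors made the values with RMA, and the deposited values are on the log2 scale (2.17 to 13.5). RMA is a background correction, a normalization between arrays and a summary of probes, so levels are relative to the array. The sources used here give neither its version nor any batch adjustment. Per the labels' protocols, 25 ng of RNA went through 17 cycles of amplification. The number of arrays limits the precision.

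Of 45141 probe sets, 28898 had 1 gene in the platform annotation, which can be old, and 551 with several genes were left out. The members are the platform symbols starting with Nduf, each by its probe set with the highest mean. The fit used limma 3.58.1 in R 4.3.3 (lmFit, eBayes) on all 17097 genes and 41 arrays, by a model of 12 group means (29 residual and 2.63 prior degrees of freedom). Tested were the high fat minus the control mean per time point, their equally weighted average, diet by time and time within a diet (F tests of 5 coefficients), and a cosine of 24 h in each diet (35 residual degrees of freedom). Adjusted p were made by Benjamini-Hochberg over all genes and called under 0.05. Group values are means ± SD over arrays and differences are ± SE. The steps were tested on simulated data. Plots used matplotlib 3.10.9 with Python 3.11.15.

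Members and lists were chosen with earlier results of these data known. Every member may be named. Array values are given for the smallest adjusted p, namely 3 at ZT12, 2 each at ZT8, for the average, for each cosine and for diet by time. Ndufa5 was added because it alone passed at ZT20. Up to 3 genes of smallest adjusted p are named per other list. Alternatives were the mean of probe sets, a filter below the 25th percentile, array weights, trended and robust eBayes, subtracted array medians, a replicate block, a random block, a single time point, and leaving out arrays or time points.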

Additional observations from a re-analysis of the deposited data

Results flagged for a closer look

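In 4 of 70 checks of a group of 4 arrays, 1 array lay far from the other 3, its gap taking most of the group's range. Chance gives such a gap in about 1 in 20 independent checks. These checks were not independent, since the same groups of arrays were checked for several readouts. Control ZT16 replicate 4 was low in the median of the Nduf genes, at -0.217 (log2) against -0.00801 to 0.00693 in the other 3 (gap 0.933 of the range), and in Ndufs5-ps, at 9.12 against 9.51 to 9.55 (0.926). Control ZT16 replicate 2 was low in Ndufaf2, at 8.29 against 8.44 to 8.46 (0.840). High fat ZT12 replicate 2 was low in Ndufa6, at 8.99 against 9.44 to 9.47 (0.949).

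By the F test over the 6 time points, the diet difference itself differed between time points for 33 of the 42 members and 19% of all genes. It did so for the 9 members given array by array, which were chosen for small p in these data, in part by this test. The adjusted p were 1.07e-05 for Ndufs6, 1.75e-05 for Ndufa1, 0.000204 for Ndufb3, 0.000368 for Ndufa6, 0.000499 for Ndufc2, 0.000877 for Ndufa4, 0.00119 for Ndufs5-ps, 0.00163 for Ndufaf2 and 0.00187 for Ndufs4.

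The cosine differed between diets for 17 of the 42 members and 3.58% of all genes. Among the 17 were 8 of those given array by array. The adjusted p were 0.00492 for Ndufa4, 0.00761 for Ndufaf2, 0.00897 for Ndufc2, 0.0157 for Ndufs6, 0.0227 for Ndufs5-ps, 0.0239 for Ndufs4, 0.0262 for Ndufa6 and 0.0470 for Ndufb3. No member passed in the cosine difference when the arrays of each diet and time point formed a random block (limma).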

How the results depend on the processing

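The ZT12 count stayed between 26 and 33 under every alternative run, with all passing members higher. The ZT8 count was 0 in a fit of its own arrays and 6 with array weights, and the ZT20 count 0 and 5. ZT20 was also 3 without ZT8. The mean of probe sets gave 1 at ZT0. The average was 2 with medians of tested genes subtracted, 0 without ZT8 and 0 without ZT12. Time in the control diet was 13 without ZT8, and time in the high fat diet 13 and diet by time 13 without ZT12. The cosine counts with the random block were 0 in the control diet, 0 in the high fat diet and 0 for the difference. Without ZT12 they were 11, 0 and 0, and without ZT8 the control count was 1 and the difference 7. Without ZT8 and ZT12, chosen after seeing the data, diet by time was 0, time in the control diet 9, time in the high fat diet 7, the high fat cosine 5 and the cosine difference 0. The averages of Ndufa6 (-0.059) and Ndufa1 (-0.11) then reversed. The cause of these moves was not tested. Shares of all genes that passed in the same fits are not given here, so the moves may not be particular to the Nduf genes.

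Leaving out each array in turn gave 0 at ZT0, 0 to 1 at ZT4, 3 to 20 at ZT8, 26 to 33 at ZT12, 0 at ZT16, 0 to 6 at ZT20 and 1 to 6 on average. It gave 29 to 33 for diet by time, 18 to 32 and 33 to 37 for time in the control and high fat diets, 0 to 4 and 8 to 20 for their cosines and 9 to 24 for the cosine difference. Except at ZT8 without control ZT8 replicate 2, the shares of all genes in these fits are not given here.

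Over 19 pairs of arrays with the same number, deviations from the group means correlated at -0.272 to 0.248 and exceeded 0.1 in 2, with 1 value by construction for both pairs of ZT8. The numbers were therefore not taken to pair the arrays, and the labels do not say what they share. With the replicate block the count was 32 at ZT12, 16 at ZT8, 22 for time in the control diet and 32 for diet by time. How far each probe set lay above background is unknown here.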
